A study of Homo sapiens with 4 samples.

Results

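Oxidative phosphorylation is described here through 55 genes: the 13 mRNAs encoded by mitochondrial DNA and 42 nuclear genes for subunits of complexes I to V. They were chosen by name, not by any measured value, and all 55 were found by Ensembl gene ID among the 62655 genes of the count table. Hep G2, a human liver cancer line, was plated at 150000 cells/ml and moved after 24 hours to a medium rich in oleic acid, which loads the cells with lipid. After a further 24 hours the steatotic cells were transfected, and they were harvested 24 hours after that. The mimic group (2 libraries) received a synthetic copy of the 5′ tRNA fragment LysTTT-5'tRF, and the control group (2 libraries) received a negative control oligonucleotide. Both groups were oleic acid-loaded and transfected, so neither holds cells without lipid loading or without transfection. The count columns were assigned to mimic and control from their names, the mimic columns by elimination. Libraries are numbered 1 and 2 by their columns. Nothing in the labels ties them to separate cultures, so the p-values rest on a spread between libraries that may be technical.

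The respiratory chain passes electrons from NADH (complex I) and succinate (complex II) through ubiquinone to complex III, then through cytochrome c to complex IV, where oxygen is reduced. The protons pumped by complexes I, III and IV drive complex V, the ATP synthase. Complexes I, III, IV and V are built from subunits of both genomes, and complex II is nuclear alone. The mitochondrial mRNAs are cut from long polycistronic transcripts and translated inside the organelle, whereas the nuclear subunits are made in the cytosol and imported. In hepatocytes this chain reoxidises the carriers reduced by fatty acid oxidation.

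The libraries held between 15430539 and 18961222 reads assigned to genes. All 9 hepatocyte markers on the list passed the filter on low counts, with summed levels of 48940 and 48560 reads per 1000000 (CPM, counts scaled to library size) in mimic libraries, against 47680 and 45850 CPM in control libraries. Of the 9, ALB alone was called, and it was higher with the mimic; the part of this in the members' values was not tested. PTPRC and CD3E (immune), COL1A2 and DCN (fibroblast), KDR (endothelial) and all 3 squamous markers were at 0 reads; LYZ made up nearly all of the immune sum of 1475 to 1620 CPM. Control library 2 stood farthest from the others, with 10.4% of its reads not uniquely placed, against 8.30% to 8.47% in the other libraries. Over 14464 genes tested, 50 (0.346%) passed edgeR's quasi-likelihood test at a Benjamini-Hochberg adjusted p of 0.05, 40 higher (0.277%) and 10 lower (0.0691%) with the mimic. Leaving out a mimic library made that count 20 (library 1 out) or 120 (library 2 out). Leaving out a control library made it 424 (library 1 out) or 22 (library 2 out).

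No member passed the test in either direction. In edgeR's quasi-likelihood test 0 of 55 members passed the adjusted threshold of 0.05, where 0.346% of all genes did, 0.277% higher and 0.0691% lower. At an unadjusted p under 0.05 there were 2, UQCRB higher and CYC1 lower, where 9.43% of all genes reached that level, 5.06% higher and 4.37% lower. DESeq2, which gave an adjusted p for 30 of the 55, called 0 and had 1 member at an unadjusted p under 0.05. Limma voom called 0 and had 3. The members' log2 fold changes (mimic over control) lay between -0.23 and 0.25. Mimic and control libraries did not overlap for 20 of 55 members, 12 with the mimic above and 8 below, against 39.1% of all genes tested (19.8% above and 19.3% below). The members' share is thus near that of all genes. In bulk RNA of this kind, fewer cells expressing a gene and less RNA per cell cannot be told apart.

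**Figure D1:**
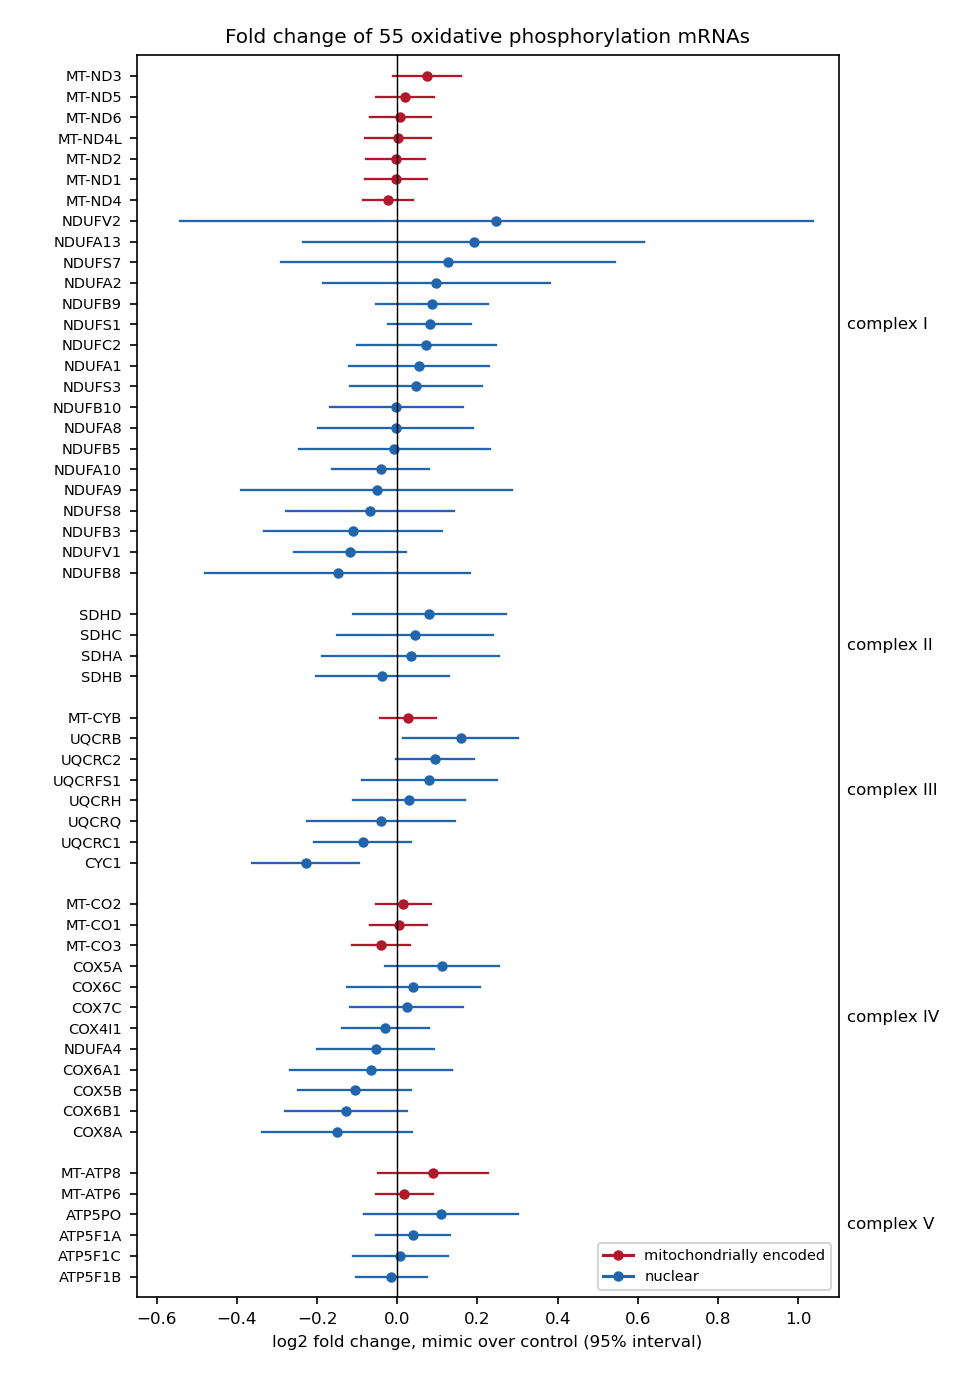
Fold change of each member, mimic over control on a log2 scale, with its 95% interval, ordered by complex; red marks mitochondrially encoded and blue nuclear members. All 13 red points lie between -0.04 and 0.09, the blue ones between -0.23 and 0.25, and only the intervals of UQCRB and CYC1 leave out 0.

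The mitochondrially encoded mRNAs were far more abundant than any nuclear member. To compare genes, CPM was divided by the length in kb of 1 annotated transcript per gene. On this scale the 13 mitochondrial mRNAs averaged between 2715 CPM per kb (MT-ND2) and 11230 CPM per kb (MT-ND4), with a median of 3966 CPM per kb. The 42 nuclear members averaged between 1.20 CPM per kb (NDUFA9) and 294 CPM per kb (COX4I1), with a median of 47.3 CPM per kb, so the ranges did not meet. After COX4I1 came ATP5F1B at 279, ATP5F1A at 224, UQCRC2 at 147, COX6B1 at 143 and COX5A at 136 CPM per kb. COX4I1 ranged over the libraries from 282 to 304 CPM per kb and ATP5F1B from 277 to 282. Within every library COX4I1 was the higher, and they were closest in mimic library 1 (282 against 276.5 CPM per kb). UQCRC2 (138 to 155 CPM per kb) and COX6B1 (127 to 151 CPM per kb) overlapped and differed by less than their spread. The lowest values were those of NDUFA9, NDUFV2 (2.18 CPM per kb) and SDHC (2.51 CPM per kb). NDUFA9 and SDHC were scaled by long annotated transcripts of 8363 and 13566 bases, so their levels depend on the transcript chosen. The same holds for UQCRB (5575 bases), NDUFA10 (4915 bases) and UQCRFS1 (3475 bases). NDUFV2 was scaled by 930 bases and had 17 to 44 reads per library. It shares 82.9% of that transcript with a same-strand gene, so its reads may be missing or misplaced.

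**Figure D2:**
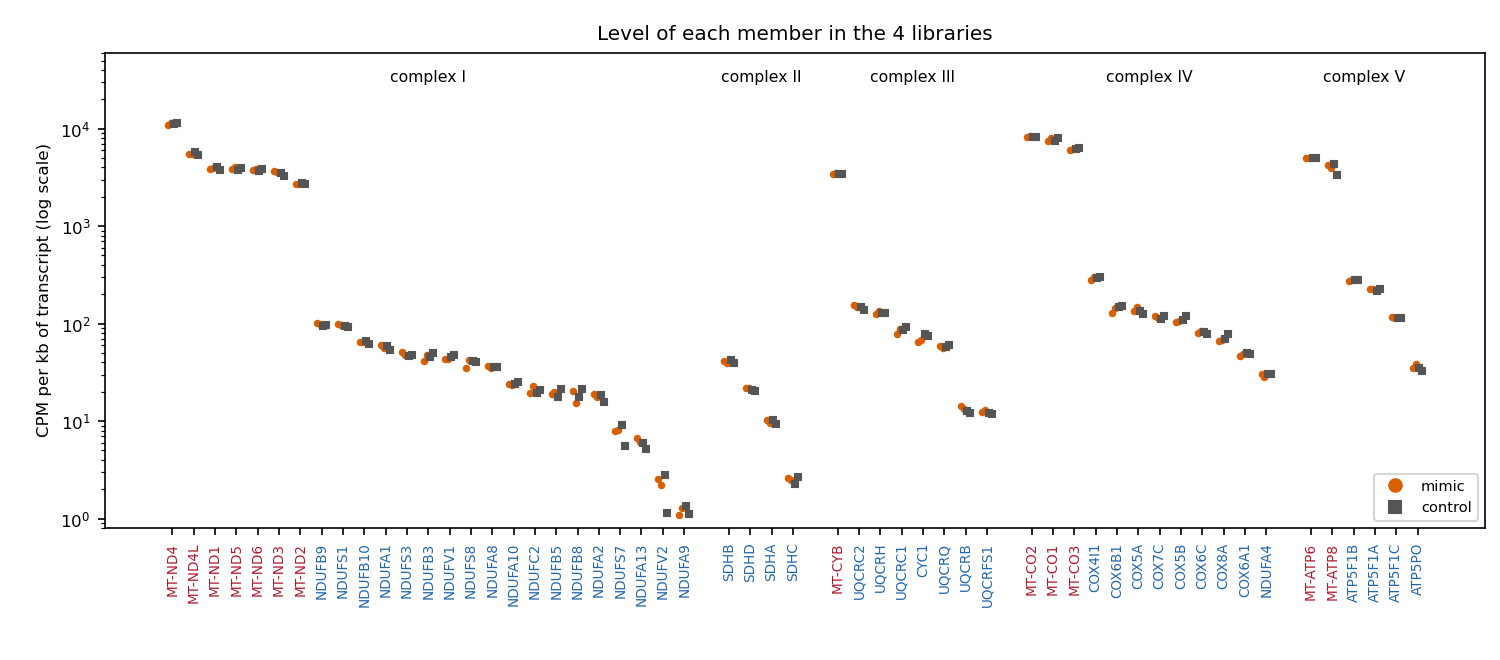
Level of each member in CPM per kb of transcript (log scale) in the 2 mimic libraries (orange circles) and the 2 control libraries (grey squares), by complex; gene names in red are mitochondrially encoded. The mitochondrial mRNAs lie between 2715 and 11230 CPM per kb on average and every nuclear member at or below 294.

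Together the 13 mitochondrial mRNAs took 6.31% and 6.49% of gene-assigned reads in mimic libraries, against 6.43% and 6.54% in control libraries. The groups overlapped, at 6.40% ± 0.13 with the mimic and 6.49% ± 0.08 in controls (SD, n = 2 each), a difference of -0.0843 percentage points. Exact binomial 95% intervals, which cover counting error only, were 6.30% to 6.32% and 6.48% to 6.51% for the mimic libraries, against 6.42% to 6.44% and 6.53% to 6.55% for the controls. The 42 nuclear members took 0.360% and 0.362% of reads with the mimic, against 0.362% and 0.366% in controls. There were 17.6 and 17.9 mitochondrial reads per nuclear member read with the mimic, against 17.8 and 17.9 in controls. The spread between the 2 mimic libraries exceeded the difference between the groups in this ratio. With 2 libraries against 2, an exact two-sided permutation test cannot go below p = 0.333, so no p is given for the shares.

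**Figure D3:**
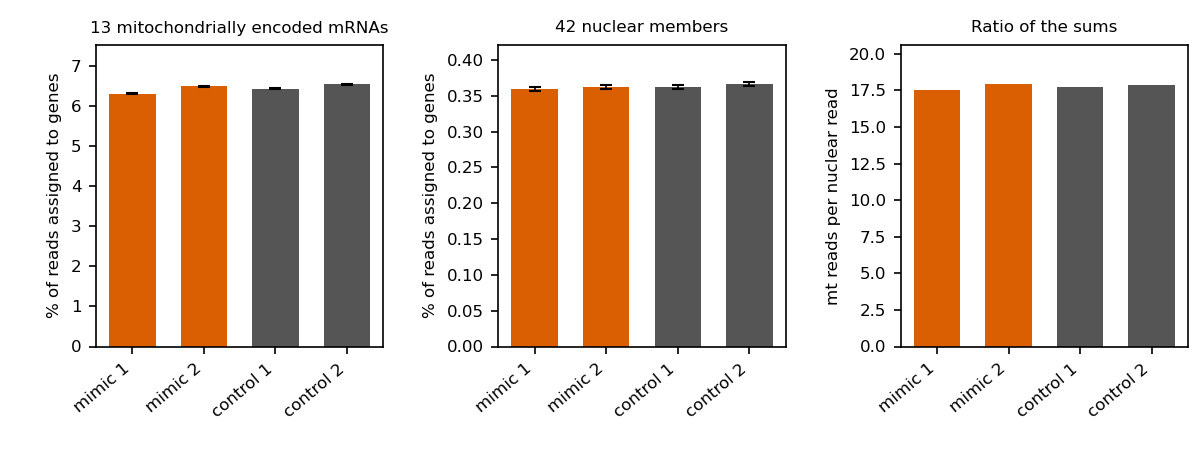
Reads of the 13 mitochondrially encoded mRNAs and of the 42 nuclear members as a percentage of gene-assigned reads (bars, with exact binomial 95% intervals), and the ratio of the 2 sums, in mimic (orange) and control (grey) libraries. The mitochondrial share lies between 6.31% and 6.54% and the ratio between 17.6 and 17.9 in all 4 libraries.

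Mitochondrial genes are packed so tightly that some share bases, which bears on how reads are assigned to them. A pair of junctions are shown on their coding strand, from GENCODE 29 transcripts and the GRCh38 genome, with the shared bases in capitals. The first is chrM:8487-8612 (plus strand), where the last 46 bases of MT-ATP8 are also the first of MT-ATP6; the second is chrM:10720-10806 (plus strand), where MT-ND4L and MT-ND4 share 7 bases.
MT-ATP8/MT-ATP6: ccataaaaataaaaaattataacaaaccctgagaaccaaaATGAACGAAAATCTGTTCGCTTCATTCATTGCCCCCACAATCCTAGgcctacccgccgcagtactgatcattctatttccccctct
MT-ND4L/MT-ND4: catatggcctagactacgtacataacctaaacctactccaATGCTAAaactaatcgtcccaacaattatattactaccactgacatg
Shared bases are 22.2% of MT-ATP8, 2.36% of MT-ND4L and 0.508% of MT-ND4. They are 6.90% of MT-ATP6, which also shares 1 base with MT-CO3. How the counting treated reads there is not given in the sources used here. Each of the 13 is taken by its own annotated gene, so the 13 mRNAs are a count of genes and not of separate RNA molecules. Of the 13 annotated mRNAs, 6 end in an incomplete stop codon, which the poly(A) tail completes. The last 20 bases of MT-ND3 and of MT-ND1 show this, with the partial stop in capitals.
MT-ND3: aggattagactgaaccgaaT
MT-ND1: agcattccccctcaaaccTA

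Complex I, the NADH dehydrogenase, has 7 mitochondrially encoded subunits, which form the membrane arm that pumps protons. MT-ND4, a core subunit of the pump and the most abundant member, had 15120 and 15590 CPM in mimic libraries, against 15530 and 15660 CPM in control libraries. The groups overlapped, and the log2 fold change was -0.02 (95% interval -0.09 to 0.04). It made up 23.8% of mitochondrial mRNA reads in each mimic library, against 24.2% in each control library. MT-ND3, the subunit with the smallest p of the 7, had 1258 and 1233 CPM with the mimic, against 1223 and 1143 CPM in controls. Both mimic libraries lay above both controls, yet the log2 fold change of 0.07 had an edgeR quasi-likelihood adjusted p of 0.616, and control library 2 alone was low. The other 5 (MT-ND1, MT-ND2, MT-ND4L, MT-ND5 and MT-ND6) had log2 fold changes between -0.0042 and 0.02, all with overlapping groups. MT-ND6 lies on the opposite strand to the others and averaged 1994 CPM with the mimic and 1983 CPM in controls.

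MT-CYB, the cytochrome b of complex III and its only mitochondrially encoded subunit, had 3946 and 3995 CPM with the mimic, against 3920 and 3880 CPM in controls. The groups did not overlap, but the log2 fold change was 0.03 with an interval of -0.04 to 0.10. In complex IV, MT-CO1, MT-CO2 and MT-CO3 form the catalytic core that reduces oxygen. MT-CO2, the highest of them per kb, had 5623 and 5753 CPM in mimic libraries, against 5609 and 5646 CPM in control libraries, a log2 fold change of 0.02. MT-CO3, with the smallest p of the 3, had 4685 and 4823 CPM with the mimic, against 4792 and 4984 CPM in controls. Its log2 fold change of -0.04 was the lowest of the mitochondrial members, and its edgeR quasi-likelihood adjusted p was 0.784. MT-CO1 had 11630 and 12330 CPM with the mimic, against 11640 and 12260 CPM in controls. Its libraries differed more within each group than the group means did.

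The mitochondrial subunits of ATP synthase are MT-ATP6, which forms the proton path beside the rotor ring, and MT-ATP8, a small membrane subunit next to it. MT-ATP6 had 3420 and 3435 CPM with the mimic, against 3376 and 3395 CPM in controls, without overlap, and a log2 fold change of 0.02. That fold change was -0.0018 when reads were scaled by library totals alone. MT-ATP8 had 875 and 818 CPM with the mimic, against 891 and 700.1 CPM in controls, so the mimic libraries lay between the 2 controls. Its log2 fold change of 0.09 was the largest of the 13 and had the widest interval (-0.05 to 0.23), with an edgeR quasi-likelihood adjusted p of 0.731. This value depended on the control libraries: without control library 1 it was 0.27 (adjusted p = 3.98e-06), and without control library 2 it was -0.07 (adjusted p = 0.837). The remaining alternatives gave adjusted p between 0.139 and 0.978. Control library 2 is the one with the most reads not uniquely placed; the part of this in the MT-ATP8 result was not tested.

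Over all 13 mitochondrial mRNAs, 9 log2 fold changes were above 0, where 7284 of 14464 genes tested were above 0. The median was 0.0080, beside 0.0011 for all genes tested. The sign of that median depended on the scaling: it was -0.0115 with library totals and -0.0035 with upper-quartile factors. In 3 of 13 the groups did not overlap (MT-ND3, MT-CYB and MT-ATP6), all 3 with the mimic above, where 19.8% of all genes did so. The intervals were narrow: 11 of 13 lay within 1.1-fold of no change in either direction, and all 13 within 1.3-fold. The exceptions to the tighter limit were MT-ND3 and MT-ATP8, which with MT-ND4L have the shortest annotated lengths of the 13. Each of the 13 had between 11274 and 292782 reads in a library.

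The nuclear members of complex I included 18 genes. NDUFV1, which carries the FMN and takes electrons from NADH, had 68.5 and 68.7 CPM in mimic libraries, against 73.1 and 75.9 CPM in control libraries. The groups did not overlap, and the log2 fold change of -0.12 had an edgeR quasi-likelihood adjusted p of 0.623, the smallest p of the 18. Its partner NDUFV2 had 36 and 39 reads with the mimic, against 44 and 17 in controls, the fewest of any member. NDUFV2 therefore had the widest interval (-0.54 to 1.04), and 82.9% of its transcript is shared with another annotated gene on the same strand. NDUFS1, the large iron-sulfur subunit, had 236 and 232 CPM with the mimic, against 225 and 217 CPM in controls. It did not overlap and its log2 fold change was 0.08, with an edgeR quasi-likelihood adjusted p of 0.648.

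The other core subunits gave values on both sides of 0. NDUFS7 and NDUFS8, which hold iron-sulfur clusters on the path to ubiquinone, had log2 fold changes of 0.13 and -0.07, and NDUFS3 had 0.05, each with overlapping groups. Among the accessory subunits, NDUFB9 was the highest per kb (98.0) and had 72.4 and 71.2 CPM with the mimic, against 67.1 and 68.0 CPM in controls. The groups did not overlap, and its log2 fold change of 0.09 had an interval of -0.05 to 0.23. NDUFA13, also known as GRIM-19, had 6.60 and 6.07 CPM with the mimic, against 5.89 and 5.15 CPM in controls. Both mimic libraries were higher and the log2 fold change was 0.19, but the edgeR quasi-likelihood adjusted p was 0.849 and 44.1% of the transcript is shared with a same-strand gene. NDUFB8, at -0.15 the lowest of complex I, had 13.7 and 10.2 CPM with the mimic, against 11.8 and 14.3 CPM in controls, which overlap. Of the NDUFB8 transcript, 71.7% is shared with a same-strand gene. The other accessory subunits (NDUFA1, NDUFA2, NDUFA8, NDUFA9, NDUFA10, NDUFB3, NDUFB5, NDUFB10 and NDUFC2) lay between -0.11 and 0.10, all with overlapping groups. In the 18, 9 values were above 0 and the median was 0.02; in 3 the mimic was above control without overlap and in 1 below, beside 19.8% and 19.3% of all genes.

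Complex II, succinate dehydrogenase, also works in the tricarboxylic acid cycle. SDHB, its iron-sulfur subunit and the highest per kb of the 4, had 47.6 and 45.0 CPM with the mimic, against 49.0 and 45.8 CPM in controls. The groups overlapped and the log2 fold change was -0.04. SDHD, a membrane anchor, had 31.7 and 31.6 CPM with the mimic, against 30.3 and 29.6 CPM in controls. They did not overlap, and the log2 fold change of 0.08 had an edgeR quasi-likelihood adjusted p of 0.862. Of the SDHD transcript, 22.2% is shared with a same-strand gene. SDHA, the flavoprotein, and SDHC, the other anchor, gave 0.03 and 0.04. Complex II had a median of 0.04 over its 4 genes.

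Complex III held both members that reached an unadjusted p under 0.05, on opposite sides of 0. CYC1, the haem-bearing cytochrome c1 that hands electrons to cytochrome c, had 79.6 and 83.6 CPM in mimic libraries, against 98.0 and 93.4 CPM in control libraries. The groups did not overlap: the mimic mean was 81.6 ± 2.9 CPM and the control mean 95.7 ± 3.2 CPM (SD, n = 2 each). The log2 fold change was -0.23 (standard error 0.06, interval -0.36 to -0.10), with an edgeR quasi-likelihood adjusted p of 0.168. It stayed between -0.27 and -0.19 when each library was left out in turn, with adjusted p between 0.163 and 0.711. CYC1 shares none of its annotated exons with another gene.

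UQCRB, a small subunit that binds ubiquinone, had 79.7 and 73.7 CPM with the mimic, against 70.1 and 67.1 CPM in controls. Both mimic libraries were above both controls, and the log2 fold change of 0.16 (interval 0.01 to 0.30) had an edgeR quasi-likelihood adjusted p of 0.482. UQCRC2, a core subunit and the most abundant of the complex per kb among its nuclear genes, had 405 and 391 CPM with the mimic, against 384 and 362 CPM in controls. It too did not overlap, with a log2 fold change of 0.09 and an edgeR quasi-likelihood adjusted p of 0.550. Its rank per kb depends on the transcripts chosen, since UQCRB was scaled by 5575 bases. The other core subunit, UQCRC1, had 156 and 173 CPM with the mimic, against 169 and 181 CPM in controls, which overlap, and a log2 fold change of -0.09. With each library left out in turn, UQCRB ranged from 0.10 (without mimic library 1) to 0.22 (without mimic library 2). UQCRC2 ranged from 0.05 (without control library 2) to 0.14 (without control library 1). UQCRFS1, the Rieske iron-sulfur protein, gave 0.08 without overlap. UQCRH and UQCRQ gave 0.03 and -0.04 with overlapping groups. UQCRH has a near-identical copy, UQCRHL, whose reads may not be separable: UQCRHL averaged 3.04 CPM in mimic libraries and 1.49 CPM in control libraries, and UQCRH 78.5 CPM in mimic libraries and 77.1 CPM in control libraries.

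**Figure D4:**
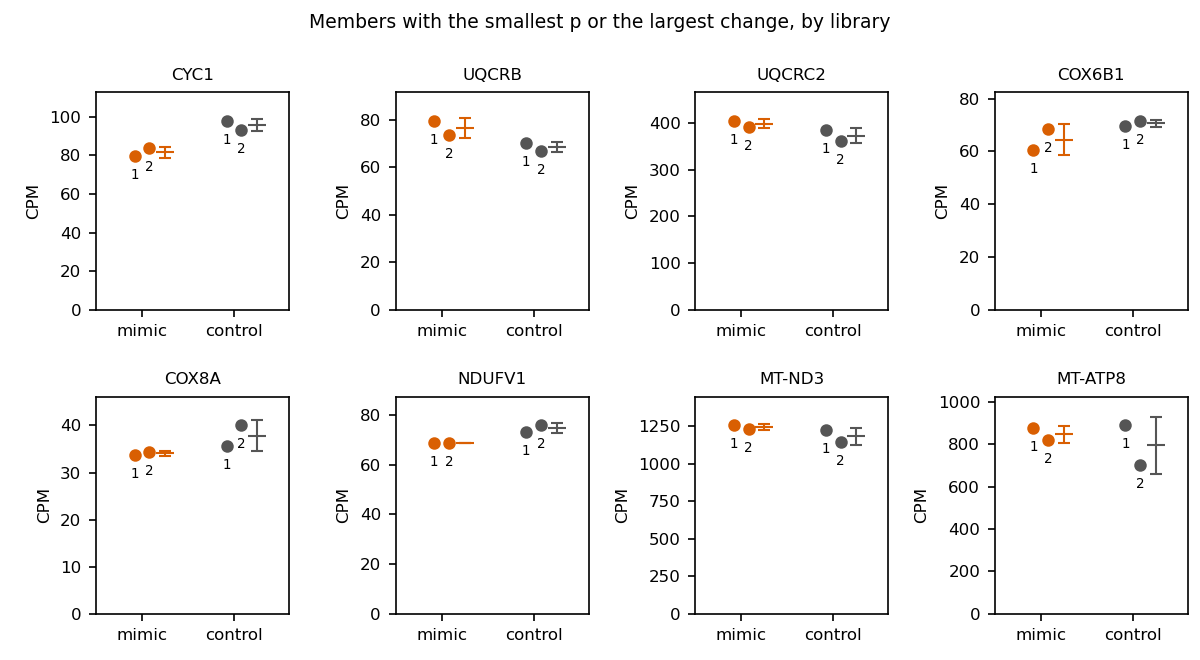
CPM of 8 members in each mimic (orange) and control (grey) library, numbered 1 and 2, with the group mean ± SD (n = 2) to the right of the points. CYC1, COX6B1, COX8A and NDUFV1 are lower in both mimic libraries, UQCRB, UQCRC2 and MT-ND3 higher, and MT-ATP8 overlaps because control library 2 is low.

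The nuclear subunits of complex IV surround its mitochondrial core. Of 9, 6 had log2 fold changes below 0 and the median was -0.05, the lowest of any genome and complex group. In 5 the mimic libraries lay below both controls (COX8A, COX6B1, COX5B, COX6A1 and NDUFA4) and in 1 above (COX5A), beside 19.3% and 19.8% of all genes. None of the 9 reached an unadjusted p under 0.05 in edgeR's quasi-likelihood test, and 0 were called by DESeq2 or limma voom. DESeq2 gave COX8A no adjusted p, so it could not call that gene. COX8A had 33.7 and 34.4 CPM with the mimic, against 35.6 and 40.1 CPM in controls, and a log2 fold change of -0.15 (edgeR quasi-likelihood adjusted p = 0.642). The gap was set largely by control library 2: without it the value was -0.06. Of the COX8A transcript, 34.5% is shared with a same-strand gene. COX6B1, which faces the cytochrome c side, had 60.4 and 68.6 CPM with the mimic, against 69.7 and 71.7 CPM in controls. Its log2 fold change was -0.13 (edgeR quasi-likelihood adjusted p = 0.628), and without mimic library 1, the lowest of the 4, it was -0.05.

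COX5B, a zinc-binding subunit, had 73.9 and 76.2 CPM with the mimic, against 77.4 and 84.5 CPM in controls, a log2 fold change of -0.11. COX6A1 gave -0.07. NDUFA4, named for complex I but now placed in complex IV, gave -0.05. COX5A, which assembles with COX4I1, lay on the other side, with 76.9 and 83.1 CPM with the mimic, against 76.6 and 71.6 CPM in controls (log2 fold change 0.11). COX4I1, the most abundant nuclear member per kb, had 202 and 215 CPM with the mimic, against 208 and 217 CPM in controls. Its groups overlapped and its log2 fold change was -0.03. COX6C and COX7C gave 0.04 and 0.02 with overlap. As the median over the 9 genes of the log2 deviation from each gene's mean, the mimic libraries 1 and 2 stood at -0.06 and -0.0010, against -0.0060 and 0.04 for the controls 1 and 2. So 1 library of each group lay away from 0, and the others were nearly level.

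In the catalytic head of complex V, ATP5F1A, ATP5F1B and ATP5F1C are the alpha, beta and gamma subunits, and ATP5PO belongs to the stalk that holds the head still. ATP5F1B, the catalytic subunit, had 508 and 514 CPM with the mimic, against 515 and 518 CPM in controls, a log2 fold change of -0.01 (interval -0.10 to 0.07). Its groups did not overlap, although the gap between the nearest libraries was under 1 CPM. ATP5F1A had 441 and 442 CPM with the mimic, against 422 and 437 CPM in controls (0.04), and ATP5F1C gave 0.0076. ATP5PO had 32.4 and 35.7 CPM with the mimic, against 32.6 and 30.7 CPM in controls, which overlap. Its log2 fold change of 0.11 had an edgeR quasi-likelihood adjusted p of 0.782; it was 0.17 without mimic library 1 and 0.03 without mimic library 2. In the annotation 70.3% of its transcript is shared with a same-strand gene.

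Set side by side, the 2 genomes had medians close to each other and to that of all genes. The nuclear median was 0.02 over 42 genes, 22 of them above 0, and the mitochondrial one 0.0080. The nuclear median was -0.0036 with library totals and -0.0101 where only genes of at least 10 CPM were tested. By complex and over both genomes, the medians were 0.0013 for complex I, 0.04 for II, 0.03 for III, -0.03 for IV and 0.03 for V. Single libraries moved these medians: complex II ranged from 0.0011 (without mimic library 1) to 0.08 (without mimic library 2), and complex IV from -0.05 (without control library 1) to -0.0053 (without control library 2). The precision differed more than the medians did. The half-width of the 95% interval had a median of 0.07 for mitochondrial and 0.17 for nuclear members, which had 17 to 9650 reads per library. Within 1.3-fold of no change lay the whole interval of 36 of 42 nuclear members, and within 1.5-fold that of 40; NDUFV2 and NDUFA13 were the exceptions to the wider limit. Of the 42, 25 have at least 1 named pseudogene (79 in all, 17 of them of COX6C), and reads shared with such copies may be missing or misplaced. Exons of opposite-strand genes cover 44.5% of NDUFA1, 40.8% of UQCRQ, 37.9% of NDUFS7, 26% of NDUFB9 and 24.1% of NDUFA2. With the strand setting unknown, the reads of these members may not be separable.

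Promoters of some nuclear members hold letters that the rule did not use. Factors named NRF1, GABPA and YY1 are known to bind promoters of many nuclear respiratory genes. Promoters, from 250 bases before to 50 after the gene start (RefSeq, GRCh38.p14), were matched by symbol for 33 of the 42. NDUFB5, NDUFB9, NDUFC2, SDHC, UQCRB, CYC1, COX6C, NDUFA4 and ATP5F1B were not matched. On either strand, the NRF1 letters GCGCA, then T, then GCGC were in 3 of 33, against 1.24% of 35116 promoters of the same length. With any 1 base in place of the T they were in 8 of 33, against 5.78%. GABPA letters CCGGAAGT were in 7 of 33, against 4.14%, and YY1 letters AAGATGGC in 5 of 33, against 2.89%. Any of the 3 factors' letters, with the free base for NRF1, occurred in 16 of 33 (48.5%), against 11.7% of all promoters. The 35116 promoters were not matched to the members in base composition or gene type, so the part of these in the difference was not tested.

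As examples of promoters with these letters, those of both complex IV members that carry them are shown, with SDHD, the complex II member with the smallest p. COX5B (chr2:97645812-97646111, plus strand) holds GABPA letters at 2 places, COX8A (chr11:63974370-63974669, plus strand) at 1, and SDHD (chr11:112086623-112086922, plus strand) holds an exact NRF1 match and a GABPA match. Capitals mark the matches, on either strand.
COX5B: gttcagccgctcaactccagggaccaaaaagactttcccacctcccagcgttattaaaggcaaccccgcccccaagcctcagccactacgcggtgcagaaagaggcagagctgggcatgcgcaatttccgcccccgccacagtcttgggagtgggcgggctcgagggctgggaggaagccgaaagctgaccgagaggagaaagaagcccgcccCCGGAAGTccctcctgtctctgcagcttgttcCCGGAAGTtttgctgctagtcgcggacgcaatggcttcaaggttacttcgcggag
COX8A: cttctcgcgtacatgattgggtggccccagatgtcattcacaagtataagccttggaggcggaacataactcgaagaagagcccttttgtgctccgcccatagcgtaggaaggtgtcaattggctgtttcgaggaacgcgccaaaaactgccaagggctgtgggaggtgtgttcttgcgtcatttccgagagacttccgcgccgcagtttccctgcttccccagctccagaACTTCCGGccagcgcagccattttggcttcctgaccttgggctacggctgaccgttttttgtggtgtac
SDHD: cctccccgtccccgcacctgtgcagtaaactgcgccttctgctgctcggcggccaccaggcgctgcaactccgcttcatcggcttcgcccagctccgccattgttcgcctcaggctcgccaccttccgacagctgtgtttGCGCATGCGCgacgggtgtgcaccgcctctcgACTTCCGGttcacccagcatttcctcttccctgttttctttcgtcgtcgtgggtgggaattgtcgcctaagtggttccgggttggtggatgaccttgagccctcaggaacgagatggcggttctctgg
COX5B and COX8A had mimic values below control and SDHD above, none passing the test. A match is a description of letters and not a measured site.

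The counts for NRF1, GABPA and YY1 themselves were also close between groups. NRF1 averaged 13.6 CPM with the mimic and 13.8 CPM in controls, and GABPA 29.2 CPM with the mimic and 28.0 CPM in controls. YY1 had the smallest p of 15 regulators tested, with a log2 fold change of 0.12 and an edgeR quasi-likelihood adjusted p of 0.486. PPARGC1A, a coactivator of mitochondrial gene expression, had 57.8 and 57.9 CPM with the mimic, against 61.2 and 60.7 CPM in controls. None of the regulators was called.

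A further 39 nuclear genes, not among the 55, were read from the same test: other subunits of the complexes together with cytochrome c (CYCS). Of the 39, 8 were above 0 and 31 below, where 7284 of all 14464 genes tested were above 0 and 7180 below. Their median was -0.05, and 0 were called. In edgeR's quasi-likelihood test 3 reached an unadjusted p under 0.05, all lower (ATP5MC2, ATP5F1D and NDUFB2), beside 4.37% of all genes. The groups did not overlap with the mimic above in 2 and below in 13, beside 19.8% and 19.3% of all genes. NDUFB2 averaged 20.2 CPM with the mimic and 24.4 CPM in controls (log2 fold change -0.27, edgeR quasi-likelihood adjusted p = 0.415). Over these 39 and the 42 nuclear members, 81 genes in all, 30 were above 0 and 51 below. The median over the 81 was -0.03. CYCS, cytochrome c, averaged 86.3 CPM with the mimic and 84.3 CPM in controls, where CYC1, its electron donor in complex III, had 81.6 CPM with the mimic and 95.7 CPM in controls.

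Genes needed to make, assemble and feed the chain gave no call on any list. Of 51 assembly factors tested, 24 were above 0, and TIMMDC1, which helps build complex I, had the smallest p (log2 fold change -0.29, edgeR quasi-likelihood adjusted p = 0.273). Of 36 genes for mitochondrial DNA copying, transcription and RNA handling, 15 were above 0. FASTKD3, an RNA-binding protein of mitochondria, averaged 9.10 CPM with the mimic and 6.18 CPM in controls (0.56, edgeR quasi-likelihood adjusted p = 0.286). TFAM, which packages and transcribes mitochondrial DNA, averaged 101 CPM with the mimic and 98.4 CPM in controls. LRPPRC, which stabilises mitochondrial mRNAs, averaged 791 CPM with the mimic and 760.3 CPM in controls. Of 76 mitochondrial ribosomal proteins, 36 were above 0, with a median of -0.0036. CHDH, choline dehydrogenase, which passes electrons to ubiquinone, had 95.9 and 101 CPM with the mimic, against 116 and 118 CPM in controls. Its log2 fold change of -0.25 had an edgeR quasi-likelihood adjusted p of 0.074, the smallest on these lists.

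**Figure D5:**
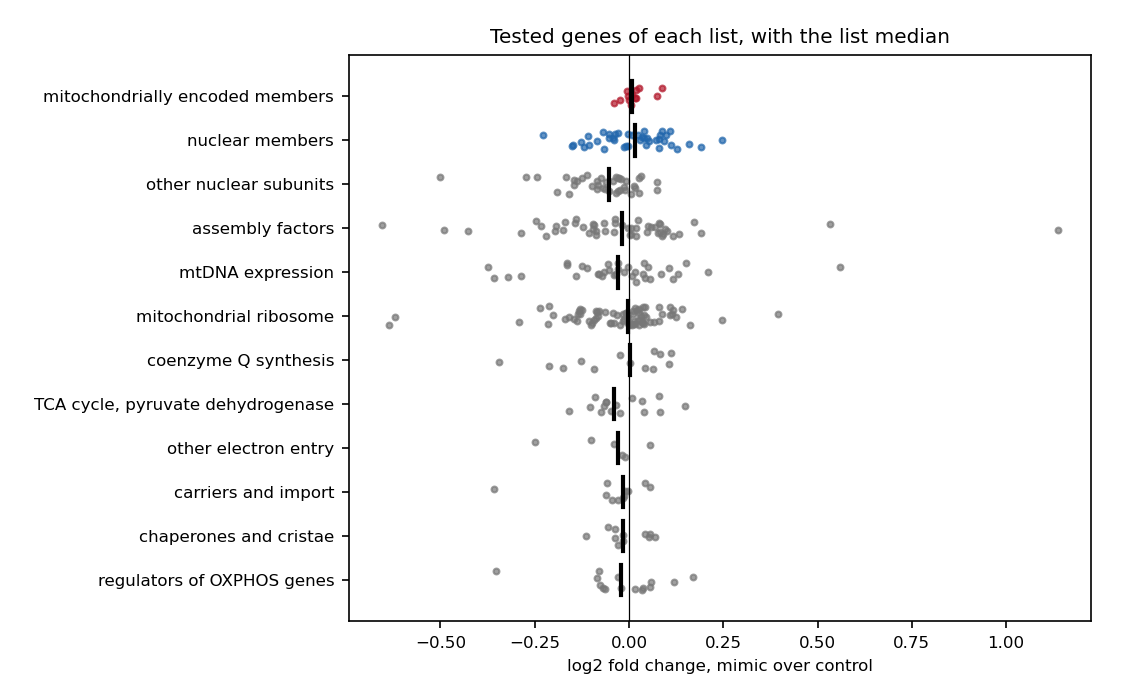
Log2 fold change, mimic over control, of the tested genes of 12 lists (points) with the list median (black bar); the mitochondrially encoded members are red and the nuclear members blue. The medians of the 12 lists drawn run from -0.05 for the other nuclear subunits, a list that includes CYCS, to 0.02 for the nuclear members.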

How the data were processed

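The authors deposited 1 table of raw read counts per gene for 4 libraries, 2 with the mimic and 2 with the negative control, and the counts are used as deposited. Per the labels' protocols, polyadenylated RNA was made into libraries with a stranded kit from 500 ng of total RNA. The submitters' processing notes name the tools HTSeq, STAR, Bowtie2 and FastQC and the GRCh38.p14 build. The strand setting and overlap mode of HTSeq and its annotation release were not given in the sources used here. The table has 62655 gene IDs and 5 summary rows that name no gene; those rows held 23.1% to 24.1% of reads and were left out.

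Gene symbols came from a reference table (62590 IDs matched). The members were chosen by name and not by any measured value. They and all gene lists were nonetheless chosen with earlier results of these data known. Genes with low counts were removed by filterByExpr (10 reads as the minimum count, 15 as the minimum total); counts were scaled by TMM and tested with edgeR 4.0.16 in R 4.3.3 (quasi-likelihood, legacy = FALSE), with Benjamini-Hochberg adjustment over 14464 genes at 0.05. The biological coefficient of variation was 5.12%. CPM is reads per 1000000 of the TMM-scaled library. Levels per kb use the length of 1 GENCODE 29 transcript per gene. Alternatives used DESeq2 1.42.0 and limma 3.58.1, other scalings and filters, and each library left out. The test was checked on counts simulated with the same spread in every library. That check holds no outlying library, so it cannot speak to the shifts seen when a library was left out. Members were named by a rule: the smallest p and the highest level per kb in each group of genome and complex, and the 5 largest changes without overlap; others are given by role. Libraries of 1 group differed by more than sampling noise.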

Additional observations from a re-analysis of the deposited data

How the results depend on the processing

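Of 279 values of the named members under other settings, 269 kept their direction and stayed uncalled, 8 changed sign and 2 were called. DESeq2 gave COX8A, ATP5PO, NDUFA13, SDHB and SDHD no adjusted p. These values could not be called there and are counted as uncalled. Genes called over the whole table, 50 in the main test, numbered 0 with no filter on low counts (1514 at an unadjusted p under 0.05 in edgeR's quasi-likelihood test), 306 with the replicate block by column number, and 20 to 424 when each library was left out. Members called numbered 1 with that replicate block (CYC1, log2 fold change -0.23, edgeR adjusted p = 0.014, against 0.098 to 0.754 under the other alternatives) and 0 to 1 when each library was left out. The labels number the samples 1 to 4 and do not pair them; deviations of libraries with the same column number correlated at 0.122 over 8868 genes, which with 2 libraries a group does not settle whether the numbers pair them. Called without control library 1 was MT-ATP8 (0.27).

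The mitochondrial median was -0.0115 with library totals, -0.0035 with upper-quartile scaling and -0.0022 to 0.0225 with each library left out. The nuclear median was -0.0036, 0.0044 and -0.0050 to 0.0181 in the same settings, and -0.0101 with a filter at 10 CPM. The complex I median was -0.0180 with library totals and -0.0118 to 0.0334 with a library left out. For complex II it was 0.0011 to 0.0768 and for complex IV -0.0516 to -0.0053 with a library left out. For complex III the library-total value was 0.0081, 0.0160 with upper-quartile scaling and 0.0042 to 0.0502; for complex V 0.0091, 0.0171, 0.0204 at 10 CPM and 0.0152 to 0.0316. The mitochondrial share differed by -0.176 to 0.0072 percentage points with a library left out.

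Signs changed with library totals for MT-ATP6 (-0.0018) and MT-CO2 (-0.0039). With each library left out, COX4I1 ranged from -0.0766 to 0.0108, MT-CO2 from -0.0022 to 0.0302, SDHB from -0.0830 to 0.0131 and MT-ATP8 from -0.0733 to 0.274. The cause was not tested. With 2 libraries a group, changes of nuclear members smaller than their intervals were not detectable at this depth. A library left alone in its group is assumed to vary like the other group.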

Other observations

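Pathways that feed the chain were read from the same edgeR quasi-likelihood test, and 0 of their genes were called. Of 16 genes of the tricarboxylic acid cycle and pyruvate dehydrogenase, 6 had log2 fold changes above 0 and the median was -0.04. SUCLG2, a subunit of succinyl-CoA ligase, had 57.3 and 58.9 CPM in mimic libraries, against 62.7 and 67.3 CPM in control libraries (log2 fold change -0.16, edgeR quasi-likelihood adjusted p = 0.498). Of 13 genes for coenzyme Q synthesis, 7 were above 0, and COQ4 had the smallest p, with 17.0 and 15.8 CPM with the mimic, against 19.1 and 17.8 CPM in controls. Of 11 carriers and import genes, 2 were above 0. TOMM20, an import receptor of the outer membrane, averaged 370.1 CPM with the mimic and 382 CPM in controls. Of 11 mitochondrial chaperone, protease and cristae genes, 4 were above 0, and HSPE1, the partner of the matrix chaperonin, averaged 72.0 CPM with the mimic and 77.9 CPM in controls. MRPL46, a mitochondrial ribosomal protein, averaged 3.60 CPM with the mimic and 5.58 CPM in controls (log2 fold change -0.62, edgeR quasi-likelihood adjusted p = 0.385).

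Mitochondrial tRNAs gave few reads in these polyadenylated libraries; the mitochondrial rRNAs were not analysed here. Of 22 mitochondrial tRNAs, 7 passed the filter on low counts, and the reads of all 22 together equalled 0.276% and 0.309% of the number of mitochondrial mRNA reads with the mimic, against 0.310% and 0.281% in controls. Of 404 nuclear copies of mitochondrial mRNAs, 7 passed the filter, and the reads of all copies, counted apart from the mRNAs, equalled 0.748% and 0.773% of the number of mitochondrial mRNA reads with the mimic, against 0.791% and 0.769% in controls. The most abundant copy, MTATP6P1, averaged 359.9 CPM with the mimic and 371 CPM in controls. Of 8 genes listed as isoforms or copies of subunits, UQCRHL and NDUFA4L2 passed the filter. UQCRHL, the copy of UQCRH, had a log2 fold change of 1.04. It had an unadjusted p under 0.05 in edgeR's quasi-likelihood test but was not called. NDUFA4L2 averaged 0.892 CPM with the mimic and 1.46 CPM in controls (log2 fold change -0.68, not called).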
